A study of Mus musculus with 3 samples.

Results

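The 10 genes described here encode the D cyclins (Ccnd1, Ccnd2 and Ccnd3), the E cyclins (Ccne1 and Ccne2), the Cip/Kip inhibitors p21, p27 and p57 (Cdkn1a, Cdkn1b and Cdkn1c) and the Ink4 inhibitors (Cdkn2a and Cdkn2b). They were chosen by name from 21887 protein-coding genes, and all 10 were found in the mouse annotation. For each gene, peaks of histone H3 trimethylated on lysine 4 (H3K4me3) lying in the gene or within 5 kb of it were taken from 3 deposited peak lists, with positions in mm10. The cells were granulosa cells of wild-type C57BL/6 female mice aged 21 to 28 postnatal days. All mice had received 4 IU of eCG, a gonadotropin that drives follicle growth. Ovaries were taken before hCG (0 h), or at 4 h or 12 h after 5 IU of hCG, which stands in for the ovulatory LH surge. Cells came from punctured follicles, the mice per library being a number not given in the sources used here.

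D cyclins bind CDK4 and CDK6 in early G1, and E cyclins bind CDK2 at the entry into S phase. Cip/Kip proteins inhibit mainly CDK2 complexes, and Ink4 proteins inhibit CDK4 and CDK6. Granulosa cells of growing follicles divide rapidly, with cyclin D2 as a main D cyclin, and leave the cell cycle as the LH surge turns them into luteal cells, when p21 and p27 rise. H3K4me3 marks the start of active or poised genes, mostly on the nucleosomes just downstream of the start site.

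There was 1 library per time, so no difference between times has a replicate check and none was tested. The lists give no peak height and no read depth, so the measurements are the presence, position and width of peaks. Covered bp is the length covered by peaks in a gene with its 5 kb flanks. The lane and the peak names of the 12 h library differed from those of the other 2, which cannot be told apart from the time. Covered bp does not tell fewer cells carrying the mark from less mark per cell. The libraries gave 20669 to 23662 peaks on the chromosomes used. Of 13 granulosa marker genes, 11, 11 and 10 had a peak at 0 h, 4 h and 12 h, with summed covered bp of 14312, 10106 and 6170. Amh, a defining granulosa gene, had none at any time. Endothelial markers had peaks at 0, 2 and 1 of 8 genes (0, 517 and 164 bp), with Pecam1 and Cdh5 at 0 throughout. Immune markers had peaks at 1, 2 and 1 of 7 (838, 1668 and 891 bp), stromal and muscle markers at 0, 1 and 1 of 7 (0, 139 and 192 bp) and theca markers at 1 of 4 each time (903, 1670 and 1199 bp). Oocyte markers had peaks at 1 of 6 each time (810, 1166 and 530 bp), and surface epithelium markers at 2, 2 and 1 of 6 (905, 761 and 256 bp). Adgre1, Csf1r, Col1a1, Dcn, Cyp17a1, Insl3 and Zp3 had none at any time. The part of other cell types in the values below was not tested.

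Across the 10 genes, 6 had a peak at 0 h, 8 at 4 h and 7 at 12 h, where 56.3%, 58.3% and 56.2% of all protein-coding genes had one. Ccnd2, Ccnd3, Ccne1, Ccne2, Cdkn1a and Cdkn1b were marked at every time. Ccnd1 and Cdkn1c were marked at none. The Ink4 gene Cdkn2a was marked at 4 h alone, by a peak of the narrowest width in its list. Cdkn2b was marked at 4 h and 12 h, by peaks that overlap the annotated gene Gm12610. Together the genes carried 15, 15 and 12 peaks, which covered 5689, 6759 and 6362 bp in all.

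**Figure D1:**
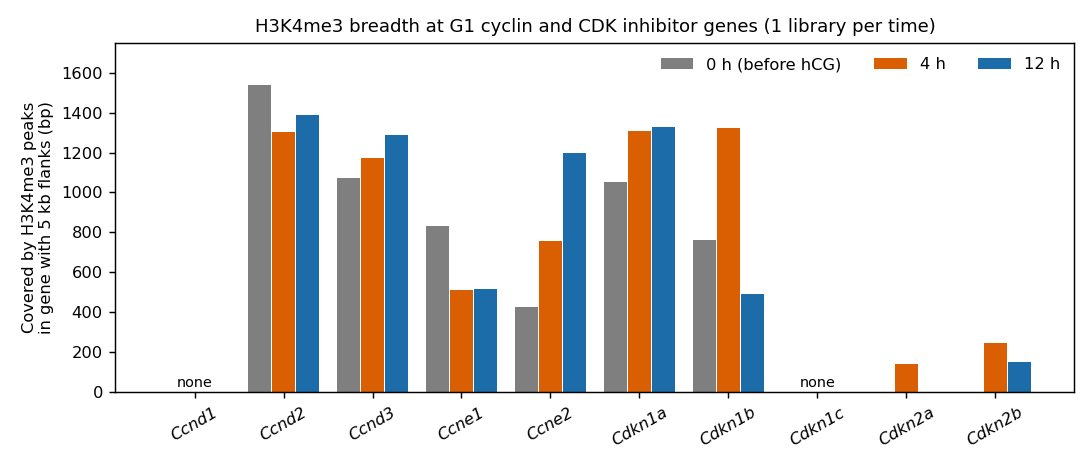
Length covered by H3K4me3 peaks (bp) in each gene with 5 kb flanks, with a bar for 0 h, 4 h and 12 h and 1 library per time. Ccnd2 has the most at 0 h (1538 bp), but 513 bp without peaks shared with a lncRNA gene, less than Cdkn1a (1054 bp). Ccne2 is higher at each later time (427, 758 and 1199 bp, of which 528 bp at 12 h are shared with a lncRNA gene). Cdkn1b is highest at 4 h (1322 bp), and Ccnd1 and Cdkn1c have none.

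Ccnd2 was the most widely covered of the 10 genes before hCG, by peaks partly shared with a lncRNA gene. It had 1538 bp at 0 h, 1301 bp at 4 h and 1386 bp at 12 h. These values were above those of 90.8%, 76.3% and 86.1% of the genes with a peak in each library. The gene (chr6:127125162-127152188) had 3 peaks at each time, the first of them 1403, 1397 and 1421 bp inside its higher-coordinate end. The widest had 733, 744 and 929 bp at 0 h, 4 h and 12 h. The peak farthest from that end was the narrowest of the 3 after hCG, with 513 bp at 0 h, 217 bp at 4 h and 152 bp at 12 h, the last being the narrowest width in the 12 h list. The other peaks of Ccnd2 lay where it overlaps the lncRNA gene 9330179D12Rik, so those peaks can belong to either gene. Without peaks that overlap another gene Ccnd2 had 513 bp at 0 h. That is less than Cdkn1a (1054 bp), Ccnd3 (923 bp), Ccne1 (834 bp) and Cdkn1b (763 bp) had. The outer edges of the marked stretch moved by at most 26 bp over the 3 times, at chr6:127148676-127150785 at 0 h. Over 10234 stretches found at every time, with peaks within 1 kb joined, the edge that moved more did so by a median of 354 bp.

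Ccnd3 carried its mark at the inner of 2 annotated start sites. It had 1073 bp at 0 h, 1171 bp at 4 h and 1290 bp at 12 h. The outer start, 88416 bp upstream, had no peak within 1 kb at any time. At the inner start (chr17, position 47593467, plus strand) the stretch began 378 bp downstream at 0 h, 281 bp at 4 h and 94 bp at 12 h. Its far edge lay 1300, 1361 and 1383 bp downstream. The stretch was 1 peak of 923 bp at 0 h, 2 peaks at 4 h and 1 peak of 1290 bp at 12 h, wider than 98.6% of the peaks in that list. A further narrow peak of 150 bp at 0 h and 145 bp at 4 h lay inside the neighbouring gene Taf8, and the stretch at the inner start alone covered 923, 1026 and 1290 bp.

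Ccnd1, the gene of cyclin D1 (chr7:144929931-144939831), had no peak in its window at any time. The nearest peaks lay 13904, 14036 and 13847 bp below the gene at 0 h, 4 h and 12 h, and 343706, 343444 and 343741 bp above it. It also had none with flanks of 10 kb. Of all protein-coding genes, 8606 of 21887 had no peak at any of the 3 times. Among the D cyclins, then, the mark was found at Ccnd2 and Ccnd3 and not at Ccnd1.

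The E cyclin genes differed in direction. Ccne1 (chr7:38097984-38107490) had 834 bp at 0 h, 513 bp at 4 h and 518 bp at 12 h. A peak that began 45, 78 and 52 bp downstream of the start site was found at all times, with 561, 513 and 518 bp. A further peak of 273 bp, from 739 to 1011 bp downstream, was found at 0 h alone. Most of the difference after hCG lay in that peak.

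Ccne2 (chr4:11190433-11204779) had 427 bp at 0 h, 758 bp at 4 h and 1199 bp at 12 h, in 1, 2 and 4 peaks. The peak common to all times had 427, 472 and 497 bp, and its higher-coordinate edge lay within 23 bp of the same position. The other edge of the marked stretch lay 1412, 926 and 1 bp inside the lower-coordinate gene end at 0 h, 4 h and 12 h. That edge moved by 1411 bp over the times, more than in 98.7% of stretches found at every time. Of the 3 peaks added by 12 h, those of 307 and 221 bp lay where Ccne2 overlaps the lncRNA gene A630034I12Rik, and the one of 174 bp lay inside Ccne2 alone. The overlapping pair cannot be assigned to either gene. Without them 671 bp of Ccne2 were covered at 12 h, less than the 758 bp at 4 h. The edge at 12 h then lay 973 bp inside the gene end, against 926 bp at 4 h and 1412 bp at 0 h. The movement of 1411 bp therefore rests on the shared peaks, and its rank among all stretches without them was not computed.

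**Figure D2:**
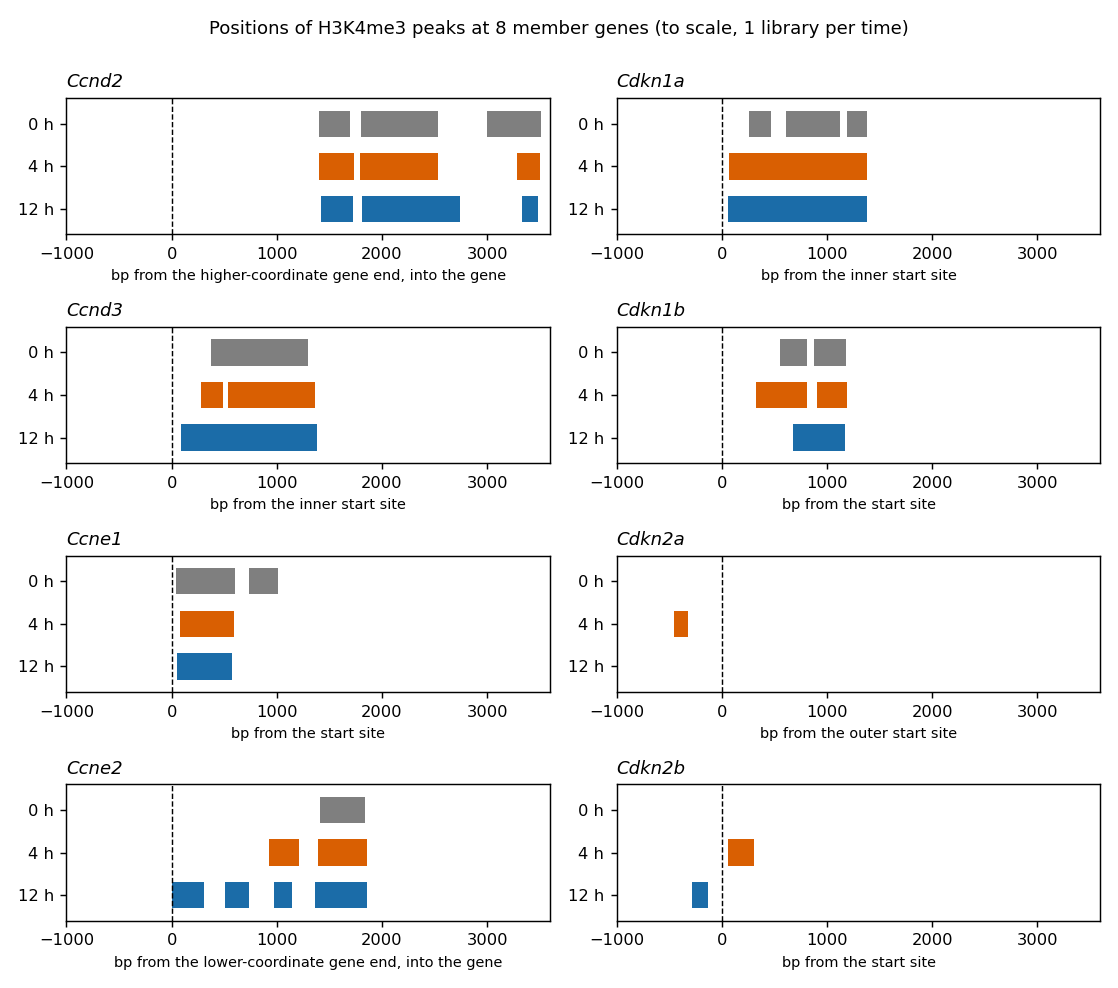
Positions of the H3K4me3 peaks at 8 of the genes, drawn to scale in bp from a start site (positive is downstream) or, for Ccnd2 and Ccne2, from a gene end into the gene, with a row for 0 h, 4 h and 12 h. The peak beside Ccnd3 in Taf8 and those past the ends of Cdkn1a and Cdkn1b lie outside the range drawn. The stretch at Cdkn1a ends 1381, 1377 and 1383 bp downstream at the 3 times and begins nearer the start after hCG. The stretch at Ccne2 extends toward the gene end, at 12 h past its 4 h edge only by peaks shared with a lncRNA gene.

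Cdkn1a, which encodes p21, was marked at the inner of its 2 annotated start sites, 2790 bp downstream of the outer one. It had 1054 bp at 0 h, 1308 bp at 4 h and 1326 bp at 12 h. At 0 h the mark was split into 3 peaks of 206, 509 and 192 bp, and 4 h and 12 h each had 1 unbroken peak of 1308 and 1326 bp. These were wider than 98.2% and 98.8% of the peaks in their lists. The stretch began 263 bp downstream of the inner start at 0 h, 70 bp at 4 h and 58 bp at 12 h. Its far edge lay 1381, 1377 and 1383 bp downstream, a range of 6 bp. A peak of 147 bp beyond the gene, from chr17:29102939-29103085, was found at 0 h alone. The outer start had no peak within 1 kb at any time. The sequences of both starts are shown because the mark was found at the inner start only, and capitals mark CG dinucleotides (RefSeq, GRCm38.p6, the assembly of mm10, with 250 bases before the start site and 50 from it).
Cdkn1a outer start, chr17:29090729-29091028, plus strand: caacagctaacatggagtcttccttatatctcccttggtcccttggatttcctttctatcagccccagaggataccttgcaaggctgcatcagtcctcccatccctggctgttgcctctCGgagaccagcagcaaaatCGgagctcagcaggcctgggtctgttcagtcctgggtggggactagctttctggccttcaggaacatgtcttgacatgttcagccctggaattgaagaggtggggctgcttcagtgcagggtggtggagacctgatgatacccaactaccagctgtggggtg
Cdkn1a inner start, chr17:29093519-29093818, plus strand: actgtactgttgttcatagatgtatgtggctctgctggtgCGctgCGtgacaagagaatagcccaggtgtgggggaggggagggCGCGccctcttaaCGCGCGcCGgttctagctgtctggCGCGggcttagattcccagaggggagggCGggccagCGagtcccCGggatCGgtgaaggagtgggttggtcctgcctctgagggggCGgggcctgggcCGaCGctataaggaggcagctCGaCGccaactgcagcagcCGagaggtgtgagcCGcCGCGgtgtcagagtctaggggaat
The 300 bases at the inner start held 23 CG dinucleotides, and those at the outer start held 2.

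Cdkn1b, which encodes p27, had 763 bp at 0 h, 1322 bp at 4 h and 491 bp at 12 h. The stretch downstream of its start covered 569, 774 and 491 bp. It began 553 bp downstream of the start at 0 h, 324 bp at 4 h and 678 bp at 12 h, and ended 1182, 1191 and 1168 bp downstream. A separate peak lay past the gene end on the side of the lncRNA gene Lockd, without overlapping it. That peak spanned 194 bp at 0 h (chr6:134927953-134928146), widened to 548 bp at 4 h (chr6:134927603-134928150) and was not found at 12 h. Both the stretch at the start and the peak past the gene end were therefore broadest at 4 h and least at 12 h. Which gene the peak past the gene end belongs to was not tested.

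Cdkn1c, the imprinted gene of p57 (chr7:143458339-143461059), had no peak in its window at any time. The nearest peaks lay 87037, 87198 and 87016 bp above it at 0 h, 4 h and 12 h, and 162048, 161869 and 161882 bp below it.

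The Ink4 genes lie side by side on chromosome 4 and had no peak at 0 h. Cdkn2a had 0 bp at 0 h, 139 bp at 4 h and 0 bp at 12 h. Its outer start gives p19Arf and its inner start, 12427 bp downstream, gives p16. The single peak at 4 h lay 318 bp upstream of the outer start (chr4:89294937-89295075), and no peak lay within 1 kb of the inner start at any time. Cdkn2b, which encodes p15, had 0 bp at 0 h, 247 bp at 4 h and 152 bp at 12 h. Its peak at 4 h began 59 bp downstream of the start, while the one at 12 h ended 137 bp upstream of it, and the 2 peaks did not overlap. Each of them overlaps the annotated gene Gm12610, so it can belong to either gene. The peaks of 139 and 152 bp were of the narrowest width in their lists, which 4.83% of the 4 h peaks and 4.10% of the 12 h peaks also had. The peak of 247 bp was wider than 37.6% of the 4 h list. Before hCG the nearest peak lay 136098 bp below Cdkn2a. The sequences are shown because a peak appeared at the outer Cdkn2a start and at Cdkn2b but not at the inner Cdkn2a start, with capitals as above.
Cdkn2a outer start, chr4:89294570-89294869, minus strand: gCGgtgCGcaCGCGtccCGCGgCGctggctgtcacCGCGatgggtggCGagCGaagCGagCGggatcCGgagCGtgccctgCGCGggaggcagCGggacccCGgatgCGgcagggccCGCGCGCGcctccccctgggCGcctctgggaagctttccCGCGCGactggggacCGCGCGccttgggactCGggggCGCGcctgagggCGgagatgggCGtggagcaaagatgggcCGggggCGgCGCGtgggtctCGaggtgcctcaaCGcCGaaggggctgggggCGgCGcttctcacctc
Cdkn2a inner start, chr4:89282143-89282442, minus strand: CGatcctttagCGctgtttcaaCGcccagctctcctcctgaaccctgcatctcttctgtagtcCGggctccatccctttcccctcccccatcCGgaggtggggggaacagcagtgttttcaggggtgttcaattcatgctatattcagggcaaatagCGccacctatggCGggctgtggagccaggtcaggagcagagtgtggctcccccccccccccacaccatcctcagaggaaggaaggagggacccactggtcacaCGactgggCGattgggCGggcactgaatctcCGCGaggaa
Cdkn2b start, chr4:89310983-89311282, minus strand: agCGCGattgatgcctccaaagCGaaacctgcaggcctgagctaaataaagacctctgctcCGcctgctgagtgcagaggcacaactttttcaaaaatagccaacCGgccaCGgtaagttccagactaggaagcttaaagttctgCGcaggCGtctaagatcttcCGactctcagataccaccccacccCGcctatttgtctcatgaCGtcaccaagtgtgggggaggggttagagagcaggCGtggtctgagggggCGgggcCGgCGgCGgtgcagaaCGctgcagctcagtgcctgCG
The outer Cdkn2a start held 45 CG dinucleotides, the inner one 12 and the Cdkn2b start 18. The outer Cdkn2a start had the most of the 9 start sites and yet at most 139 covered bp.

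The RefSeq promoter table held 9 start sites of 6 of the genes, with no entry for Ccnd1, Ccnd2, Ccne2 and Cdkn1c. Of these, 6 had a peak within 1 kb at some time, and they held 18 to 45 CG dinucleotides in the 300 bases around the start. The other 3, the outer starts of Cdkn1a and Ccnd3 and the inner start of Cdkn2a, held 2 to 15. Over 21263 start sites of protein-coding genes, the median was 22, 22 and 23 for starts with a peak within 1 kb at 0 h, 4 h and 12 h, and 4 for starts without. A share of 48.9%, 50.4% and 48.7% of all start sites had such a peak. The start site itself lay in no peak at any of the 9 starts. Among all starts with a peak within 1 kb, it lay inside a peak in 10.6%, 13.1% and 12.1%. The nearest peak was downstream in 74.7%, 74.9% and 74.96%, as at the marked starts of Ccnd3, Ccne1, Cdkn1a and Cdkn1b. Genes with several starts had a peak at some but not all of them in 25.8%, 26.8% and 25.7% of 2761 genes, as at Cdkn1a and Ccnd3.

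**Figure D3:**
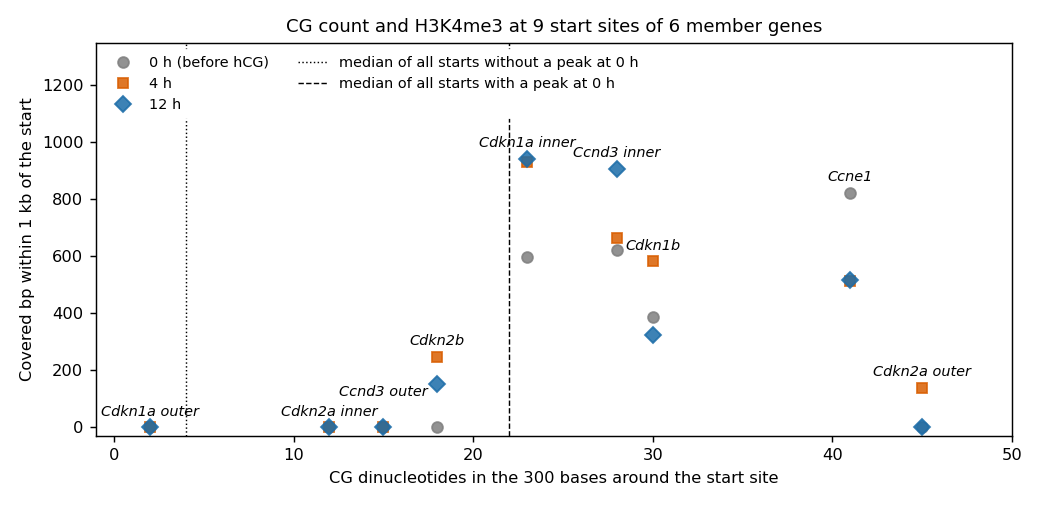
CG dinucleotides in the 300 bases around each of 9 start sites (horizontal) against the bp covered by peaks within 1 kb of the start (vertical), with a symbol for 0 h, 4 h and 12 h. The 3 starts with 2 to 15 CG dinucleotides have 0 covered bp at every time. The vertical lines are the medians of all start sites without (4) and with (22) a peak at 0 h.

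Short motifs were searched on both strands of these 300 bases. The GC box GGGCGG was found at 8 of the 9 starts, all but the outer Cdkn1a start, and in 46.2% of all promoters. CCAAT was found at 3 starts and in 38.2% of all promoters. At the inner Cdkn2a start it shares bases with the GC box. The E2F spellings TTTGGCGC, TTTCCCGC, TTTGCCGC and TTTCGCGC were found only at the outer Cdkn2a start, as TTTCCCGC, which 1.41% of all promoters hold. The cyclic AMP response element TGACGTCA was found only at the Cdkn2b start and in 2.23% of all promoters. The FOXO spelling GTAAACA was found at the outer Ccnd3 start and in 3.01%. TATAAA, the E-box CACGTG and the AP-1 spelling TGANTCA were found at 0 of the 9 starts and in 12.6%, 7.84% and 6.99% of all promoters.

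The question of how the mark differed between times was put to genes covered at both, as the log2 ratio of covered bp minus the median of all such genes. That median was 0.12 for 4 h over 0 h, -0.14 for 12 h over 4 h and -0.02 for 12 h over 0 h. A change of 1.5-fold or more is used here as a descriptive limit, with no test.

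At 4 h against 0 h, Cdkn2a and Cdkn2b gained a peak, which makes 2 of the 4 members without one at 0 h. Of all genes without a peak at 0 h, 7.87% gained one. The peak gained at Cdkn2b overlaps Gm12610. No member lost its peaks, against 2.58% of all genes with one. Among 6 members covered at both times, Ccne2 (centred log2 ratio 0.71) and Cdkn1b (0.68) were higher by 1.5-fold or more, as were 13.0% of all genes. Ccne1 was lower (-0.82), as were 10.4% of all genes. Cdkn1a (0.20), Ccnd3 (0.01) and Ccnd2 (-0.36) stayed within the limit. The median of the 6 members was 0.10, inside the interquartile range of all genes, -0.27 to 0.31. Without peaks that overlap another gene Ccnd2 was at -1.36, past the limit (217 bp at 4 h, against 513 bp at 0 h). With a window of 1 kb around gene starts, Cdkn1b was at 0.53, and Ccne2, with 0 bp in that window at 0 h, had no value.

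At 12 h against 4 h, Cdkn2a lost its peak, 1 of 8 members, and 6.22% of all genes did so. None of the 2 members without a peak at 4 h gained one, against 3.59% of all genes. Among 7 members covered at both times, Ccne2 was higher by the limit or more (0.80), as were 9.60% of all genes. Without the peaks shared with A630034I12Rik its ratio was -0.037, so the call and its direction rest on those peaks, and with narrow peaks left out it was 0.57, just inside the limit. Cdkn1b was lower (-1.29), as were 12.4% of all genes, and only 2.30% of all genes had a lower ratio. That value includes the loss of the 548 bp peak past the gene end. The stretch downstream of the Cdkn1b start alone covered 774 bp at 4 h and 491 bp at 12 h. Within 1 kb of gene starts the ratio of Cdkn1b was -0.78, past the limit. That window cuts off the far end of the stretch, which lay 1191 bp downstream at 4 h and 1168 bp at 12 h. No centred ratio was computed for the whole stretch. The value of Cdkn2b, from peaks that overlap Gm12610, was -0.56, just inside the limit. It was past the limit with equal numbers of the widest peaks (-0.60), with peaks within 1 kb joined (-0.59), within 1 kb of gene starts (-0.63) and without centring (-0.70). Ccnd3 (0.28), Ccnd2 (0.23), Cdkn1a (0.16) and Ccne1 (0.15) were within it, and Ccnd2 was at -0.37 without peaks that overlap another gene. The median of the 7 members was 0.16, with an interquartile range of all genes of -0.29 to 0.26.

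At 12 h against 0 h, Cdkn2b had gained a peak, 1 of 4, against 5.89% of all genes. That peak overlaps Gm12610. No member had lost its peaks, against 4.81%. Ccne2 had the largest ratio among the members, 1.51, above that of 97.97% of all genes, and 12.8% of all genes were higher by the limit or more. Without the peaks shared with A630034I12Rik its ratio was 0.67, still past the limit. Ccne1 (-0.67) and Cdkn1b (-0.62) were lower, as were 12.9% of all genes. Cdkn1a (0.35), Ccnd3 (0.28) and Ccnd2 (-0.13) were within the limit. Cdkn1a was past it within 1 kb of gene starts (0.67), and Ccnd2 was past it without peaks that overlap another gene (-1.74). The median of the 6 members was 0.08, with an interquartile range of all genes of -0.32 to 0.31. Flanks of 2.5 kb cut off part of the peak past the end of Cdkn1b at 0 h, leaving 642 bp of 763 bp. The ratio of Cdkn1b was then -0.37, and within 1 kb of gene starts it was -0.25. These 3 comparisons share libraries, so their values are not independent.

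**Figure D4:**
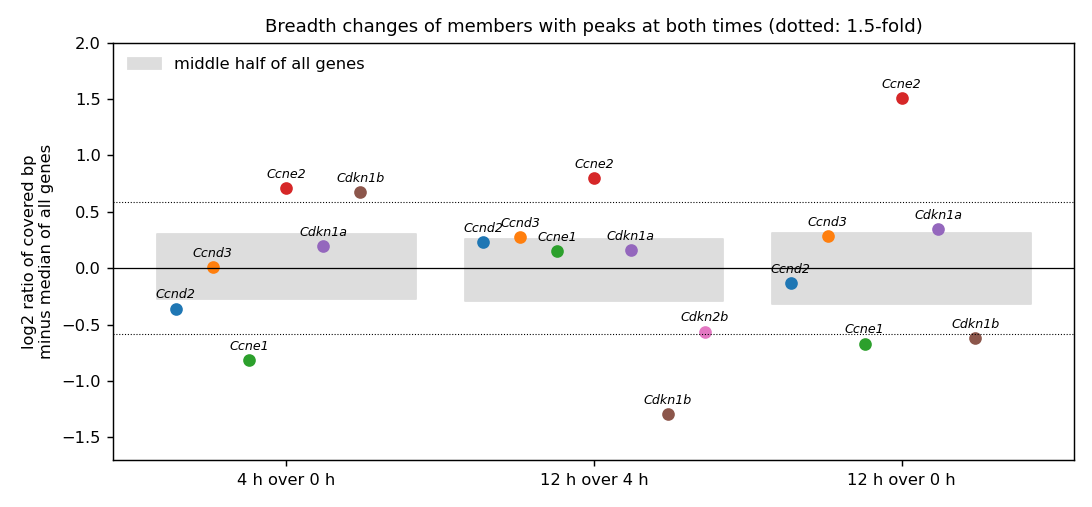
Log2 ratio of covered bp, minus the median of all genes, for each gene with peaks at both times of a comparison (4 h over 0 h, 12 h over 4 h and 12 h over 0 h). Points are single genes from 1 library per time, the grey band is the interquartile range of all genes and dotted lines mark a 1.5-fold change. Ccne2 lies above the upper line in the 3 comparisons (0.71, 0.80 and 1.51), but at -0.037 for 12 h over 4 h and 0.67 for 12 h over 0 h without the peaks shared with a lncRNA gene, and at 0.57 for 12 h over 4 h with narrow peaks left out. Cdkn1b lies above it at 4 h (0.68) and below the lower line at 12 h against 4 h (-1.29). Within 1 kb of gene starts, a window that cuts off the far end of its stretch, these values of Cdkn1b were 0.53 and -0.78.

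Peaks of the 10 genes overlapped a peak of another time, by at least 1 bp, in the following numbers. Among the 15 at 0 h, 13 had an overlap at 4 h and 11 at 12 h, where 82.0% and 75.2% of all peaks of that list did. Among the 15 at 4 h, 12 had one at 0 h and 11 at 12 h, where 73.8% and 72.3% of all did. Among the 12 at 12 h, 8 had one at 0 h and 9 at 4 h, where 78.5% and 84.4% of all did. The 4 peaks at 12 h without an overlap at 0 h were 3 of Ccne2 and the peak of Cdkn2b.

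Among 51 other G1/S genes, 50 had a peak at 0 h and 49 at 4 h and at 12 h. Of all protein-coding genes, 56.3%, 58.3% and 56.2% had one at 0 h, 4 h and 12 h. In the list of 51, 5 were higher and 4 lower past the limit at 4 h against 0 h. At 12 h against 4 h these numbers were 5 and 5, and at 12 h against 0 h they were 9 and 6. Over all genes 23.3%, 22.0% and 25.7% passed it in either direction. The median centred ratios of the list were 0.04, 0.02 and 0.08. At 4 h against 0 h the highest were the stress-response genes Gadd45b (1686 bp at 4 h, against 446 bp at 0 h) and Gadd45a (1391 bp at 4 h, against 729 bp at 0 h), and the forkhead gene Foxo4 (863 bp at 4 h, against 478 bp at 0 h). The lowest were Cdc25c (629 bp at 4 h, against 1108 bp at 0 h), a phosphatase gene that acts at mitotic entry, Cdkn3 (519 bp at 4 h, against 867 bp at 0 h) and Cables1 (551 bp at 4 h, against 900 bp at 0 h). Foxo1, a forkhead gene that FSH signalling restrains in granulosa cells, had 617 bp at 0 h and none afterwards, the only gene of the list to lose its peaks. Of all genes with a peak at 0 h, 2.58% had none at 4 h and 4.81% had none at 12 h.

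At 12 h against 4 h the highest were E2f8 (896 bp at 12 h, against 401 bp at 4 h), Cdkn2d (1300 bp at 12 h, against 753 bp at 4 h) and Pkmyt1 (898 bp at 12 h, against 521 bp at 4 h). E2f8 encodes an atypical E2F repressor, Cdkn2d the Ink4 inhibitor p19Ink4d and Pkmyt1 a kinase that holds back CDK1. The lowest were E2f7, the partner of E2f8 (316 bp at 12 h, against 954 bp at 4 h), Gadd45b (770 bp at 12 h, against 1686 bp at 4 h) and Trp53 (542 bp at 12 h, against 1125 bp at 4 h). At 12 h against 0 h, Cdkn2d (1300 bp at 12 h, against 521 bp at 0 h), Pkmyt1 (898 bp at 12 h, against 378 bp at 0 h) and the antiproliferative gene Btg2 (1864 bp at 12 h, against 1008 bp at 0 h) were highest. Cdc25b (323 bp at 12 h, against 730 bp at 0 h), Cdc25c (546 bp at 12 h, against 1108 bp at 0 h) and Rbl2 (527 bp at 12 h, against 961 bp at 0 h) were lowest. Cdkn2d and its sister gene Cdkn2c (1485, 1237 and 1299 bp at 0 h, 4 h and 12 h) thus had peaks in their windows at every time, unlike Cdkn2a and Cdkn2b. For the other G1/S genes, unlike the members, peak positions and overlaps with neighbouring genes were not examined.

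Cdkn2b had the widest range over the times on the scale of log2 of covered bp plus 100, from peaks that overlap Gm12610. By Euclidean distance on that scale over the 3 times, the genes most like it were Flnc (0, 254 and 152 bp at 0 h, 4 h and 12 h), Pdzrn3 (0, 246 and 160 bp) and Btnl10 (0, 269 and 152 bp), at distances of 0.029, 0.045 and 0.089.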

How the data were processed

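H3K4me3 was profiled by chromatin immunoprecipitation and sequencing (GAIIx, per the labels' protocols), with 1 library at each of 0 h, 4 h and 12 h. The files deposited by the authors list each sample's peaks by position in bp, without score, signal or depth. CASAVA 1.8, Bowtie2 2.2.3, MACS2 2.0.9 and mm10 are named in the submitters' processing notes. How strict the calling was, and whether an input entered it, is information not given in the sources used here. Peak names contain "nolambda" at 0 h and 4 h and lack it at 12 h. By the labels, lane 5 held the 12 h library and lane 4 the rest. A difference in peak calling or lane cannot be told apart from the time.

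Starts were made 1-based, and chromosomes 1 to 19, X and Y were used. Covered bp, centred ratios and peak overlaps of at least 1 bp were computed in Python 3.11.15 with pandas 2.3.3. Gene coordinates, start sites and promoter sequences are from RefSeq (GRCm38.p6). Members, gene lists and tests were chosen with earlier results of these data known. No test between times was possible. Named genes are all 10 members, the other G1/S genes that gained or lost all peaks, the 3 highest and 3 lowest ratios of that list per comparison, and the 3 genes most like the member with the widest range over the times. The code was checked on simulated peak lists. Alternatives were narrow peaks left out (under the 25th width percentile), equal numbers of the widest peaks, peaks within 1 kb joined, flanks of 2.5 kb and 10 kb, windows of 1 kb around gene starts, no centring, 50% reciprocal overlap and, added after the data were seen, peaks of exactly the narrowest width left out and member peaks that overlap another annotated gene left out. For genes without an entry in the promoter table, such as Ccnd1, Ccnd2, Ccne2 and Cdkn1c, the windows of 1 kb lay around both gene ends. No list of values per sample other than the 3 peak lists was used.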

Additional observations from a re-analysis of the deposited data

How the results depend on the processing

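The numbers of members and of other G1/S genes with a peak moved by at most 1.5 times under every alternative run for them, as did most counts past the 1.5-fold limit. The exceptions were as follows. With narrow peaks left out, 1 member was past it at 12 h against 4 h (2 as reported), as were 25.3% of all genes. In that setting 16 other G1/S genes were past it at 4 h against 0 h (9 as reported), as were 26.8% of all genes. Within 1 kb of gene starts, 1 member was past it at 4 h against 0 h (3 as reported), as were 21.9% of all genes. For the members, Ccne2 was just inside the limit with narrow peaks left out (0.57). Within 1 kb of gene starts, Cdkn1b was inside it (0.53) and Ccne2 had no value. For the other G1/S genes the cause was not tested. Without member peaks that overlap another gene, 1 member was past it at 12 h against 4 h (2 as reported), and Ccne2 turned to -0.037 (0.80 as reported). With 50% reciprocal overlap, 8 and 6 of the members' 0 h peaks were overlapped at 4 h and 12 h, against 13 and 11 with 1 bp. Of all 0 h peaks, 56.1% and 50.5% were so overlapped. No other ratio of a member past the limit changed sign. Members with a peak numbered 4, 7 and 6 at 0 h, 4 h and 12 h within 1 kb of gene starts. Of all genes, 49.2%, 50.8% and 48.9% had one. Ccnd2, with windows around its gene ends, had 0 bp there at each time, and Ccne2 had 0 bp at 0 h. With peaks of exactly the narrowest width left out, members with a peak numbered 6, 7 and 6, against 55.7%, 57.5% and 55.7% of all genes. The peaks of Cdkn2a at 4 h and Cdkn2b at 12 h had dropped out. Without member peaks that overlap another gene, members with a peak also numbered 6, 7 and 6, since both peaks of Cdkn2b dropped out. No share of all genes was computed for that setting. Peak height and read depth are unknown, so a peak near the calling threshold cannot be told apart from one just below it. No paired analysis was possible because there was 1 library per time.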
